A study of Mus musculus with 10 samples.

Results

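A set of 10 genes of the FGF and ERK pathway was followed in mouse embryonic stem (ES) cells that lack Tet1, Tet2 or both: the ligand Fgf4, the receptor Fgfr1, the phosphatases Dusp4 and Dusp6, the pathway inhibitors Spry2, Spry4 and Spred1, and the transcription factors Etv4, Etv5 and Egr1. They were chosen by name, as every probe that the array files assign to 1 of these 10 genes, which gave 14 of the 39429 probes on the array. Fgfr1 had 3 probes, Etv4 and Spred1 had 2 each, and the other 7 genes had 1. The brightest probe that could be tested stood for each gene, 20691 genes were tested in all, and 9 of the 10 genes were among them. The Spry4 probe was well above background on only 1 of the 3 female DKO arrays and on no array of any other group, so Spry4 has no test.

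The study asked how losing the 5-methylcytosine oxidases Tet1 and Tet2 changes expression in ES cells, on 10 two-colour arrays that started from 200 ng of total RNA. The double knockout (DKO) group held male lines 51 and 61 and female lines 60 and 59, each hybridised against a wild-type (WT) line of its sex, as 51 with 6 (2 arrays), 61 with 92 (1), 60 with 7 (1) and 59 with 94 (2). The Tet2 knockout (T2KO) was the single male line 16, hybridised against Tet1 knockout (T1KO) male line 65 on 2 arrays, and a further male T1KO line, 99, was read on 2 arrays whose other channel carries a sample that the labels exclude. DKO and T2KO RNA was always labelled with Cy5, T1KO and WT RNA always with Cy3. All lines came from mice of a mixed C57BL/6 background, grew in medium with LIF on irradiated feeder fibroblasts and were preplated on gelatin to remove the feeders before RNA was taken. Lines, or pairs of lines, were the replicates, and repeat arrays of a pair were averaged. The labels give no passage numbers.

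As background, ES cells secrete FGF4, which binds FGF receptors with heparan sulphate as a coreceptor and switches on RAS, RAF, MEK and the kinase ERK. ERK activity moves ES cells towards exit from naive pluripotency, and it induces both its effectors (Egr1, Etv4 and Etv5) and its own brakes (the DUSP phosphatases, the Sprouty proteins and the Spreds). The RNA levels of these targets are therefore widely used as a readout of ERK signalling. Expression is given here as the log2 ratio within a pair or as the normalised log2 level of a line. Such levels can be compared between lines for 1 probe but not between probes. Between DKO or T2KO lines, read in Cy5, and T1KO or WT lines, read in Cy3, they also carry the difference between dyes.

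By their brightest probes the deleted genes followed the labels, with Tet1 at 10.52 to 11.08 in DKO, 12.92 in T2KO, a mean of 10.97 in T1KO and 12.78 to 13.13 in WT lines, and Tet2 at 9.40 to 10.11 in DKO, 9.74 in T2KO, 11.43 and 11.59 in T1KO and 11.50 to 12.05 in WT lines. 1 of the 3 Tet2 probes, a dim one, did not, at 7.72 to 7.89 in DKO and 7.39 to 7.78 in WT lines. In DKO over WT, 947 of 20691 genes (4.58%) passed an adjusted p of 0.05 in limma, 591 higher and 356 lower. The split was 525 higher and 167 lower with the scanner software's log ratios, and 6186 higher and 518 lower with median centring in place of loess, which shifted the median ratio of all genes to 0.19, against 0.016. No gene passed without any 1 of the 4 pairs (unadjusted counts of 3622 to 4887, against 5426 with all 4), or with sex as a covariate. Male and female DKO pairs were each on a slide of their own, so sex and slide cannot be told apart, and neither can dye and genotype in DKO over WT. Nor can slide and genotype be told apart where T1KO or T2KO was set against WT or DKO. ES cell markers averaged 14.76 to 15.26 in DKO, 15.39 in T2KO, 14.81 to 15.14 in T1KO and 14.91 to 15.16 in WT lines. All 18 tested feeder fibroblast markers were detected, with mean levels of 12.09 to 12.66 in DKO, 12.01 in T2KO, 12.25 to 12.57 in T1KO and 11.91 to 12.87 in WT lines, and these ranges overlapped. In the 60/7 pair the median feeder marker ratio was 0.86, against -0.60 to -0.06 in the other 3 DKO/WT pairs. In RNA of whole cultures, fewer cells of a type and less RNA per cell cannot be told apart.

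None of the 9 tested genes passed the threshold in DKO over WT, where 4.58% of all genes did, and limma's unadjusted p was under 0.05 for Fgfr1 alone, against 26.2% of all genes. The means of the 4 pairs ran from -0.46 for Spry2 to 0.38 for Fgfr1, with a median of 0.07 over the 9 genes and 0.016 over all genes. Fgfr1 was the only gene of the 9 whose ratio was positive in all 4 pairs, a pattern shown by 20.2% of all genes, and none was negative in all 4, as 17.1% of all genes were. The other 8 genes had pairs of either sign.

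**Figure D1:**
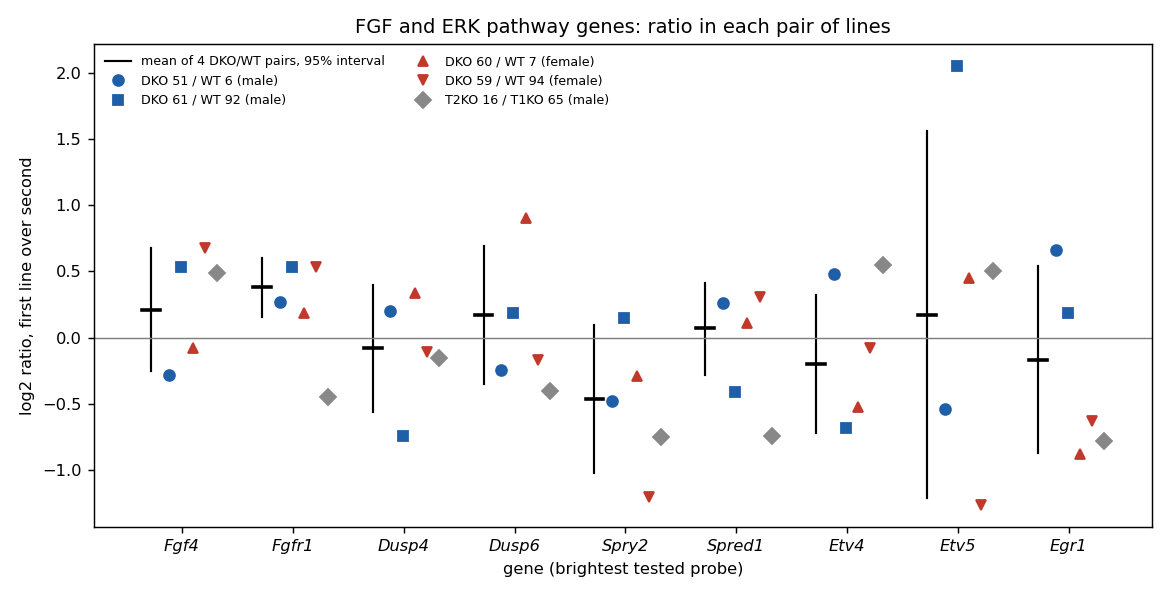
Log2 ratio (vertical axis) of the 9 tested genes (horizontal axis) in each of the 4 DKO/WT pairs and in the T2KO/T1KO pair, with the mean of the DKO/WT pairs and its 95% interval in black. Fgfr1 lies above 0 in all 4 DKO/WT pairs and at -0.45 in the T2KO/T1KO pair, and Etv5 spreads from -1.26 to 2.05.

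Fgf4 encodes the FGF ligand that ES cells make themselves. Its level was 15.10, 14.66, 15.34 and 14.97 in DKO lines 51, 61, 60 and 59, 15.24 in T2KO, 14.76 and 14.48 in T1KO lines 65 and 99, and 15.38, 14.13, 15.42 and 14.29 in WT lines 6, 92, 7 and 94. Every knockout line lay within the WT range, and the WT lines held 2 high and 2 low values. The DKO/WT ratios were -0.28, 0.53, -0.08 and 0.68 in pairs 51/6, 61/92, 60/7 and 59/94. Their mean was 0.21 (SE 0.19, 95% interval -0.25 to 0.68, n = 4 pairs, limma adjusted p = 0.504) and did not pass. With median centring it was 0.76, or 0.57 above the median of all genes, and passed (adjusted p = 0.0192). T2KO over T1KO gave 0.49 from 1 pair (limma adjusted p = 0.648).

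Fgfr1 encodes the FGF receptor tyrosine kinase that ES cells use most. It was read by 3 probes at chr8:26685072-26685131, chr8:26684061-26684120 and chr8:26685820-26685879 on the plus strand of mm9. The probe at chr8:26684061-26684120 lies in the sequence that encodes the kinase domain and is shown because it reads the coding part of the receptor mRNA, with its 2 CpG dinucleotides in capitals.
Fgfr1 coding probe: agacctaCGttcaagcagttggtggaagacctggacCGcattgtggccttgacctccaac
By the brightest probe, the level was 13.05, 13.54, 13.05 and 13.29 in DKO lines 51, 61, 60 and 59, 13.31 in T2KO, 13.76 and 13.43 in T1KO lines 65 and 99, and 12.78, 13.01, 12.86 and 12.76 in WT lines 6, 92, 7 and 94. Each of the 7 knockout lines was above each of the 4 WT lines, which held for 1.53% of all genes. By the coding probe DKO line 51 (10.14) was just below WT line 92 (10.15), so this order held for the brightest probe alone. Among the 9 tested genes Fgfr1 alone had this order, and alone had all 4 DKO lines above all 4 WT lines, as 7.54% of all genes did.

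The DKO/WT ratios of Fgfr1 were 0.27, 0.53, 0.19 and 0.53 in pairs 51/6, 61/92, 60/7 and 59/94. The mean of 0.38 corresponds to a 1.30-fold higher level in DKO lines (SE 0.086, 95% interval 0.16 to 0.60, limma adjusted p = 0.0759) and missed the threshold. The adjusted p was 0.0549 to 0.251 over the alternatives other than median centring. With median centring the ratio was 0.75, or 0.56 above the median of all genes (adjusted p = 0.00663). The median ratios of feeder fibroblast markers in the same pairs were -0.06, -0.60, 0.86 and -0.13, and their part in the Fgfr1 ratios was not tested.

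Against male WT lines read in the same dye, the 2 T1KO lines differed in Fgfr1 by 0.70 (SE 0.16, 95% interval 0.32 to 1.08, limma adjusted p = 0.241), which did not pass the threshold. T2KO over T1KO was -0.45 (SE 0.19, adjusted p = 0.422), T2KO minus male WT was 0.42 (adjusted p = 0.347), and male DKO minus T2KO was -0.01 (95% interval -0.68 to 0.65, adjusted p = 0.985). Ordered by mean level of the brightest probe, T1KO (13.59) came first, then T2KO (13.31), DKO (13.23) and WT (12.85). T2KO lay inside the DKO range of 13.05 to 13.54, and T1KO overlapped that range. This order sets levels read in Cy3 (T1KO and WT) beside levels read in Cy5 (T2KO and DKO), so it also carries the dye difference.

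The 3 Fgfr1 probes disagreed outside the DKO group. The coding probe followed the brightest one over the 11 lines after centring each dye (r = 0.97, across lines that share arrays and dyes). It gave DKO/WT 0.34 (SE 0.078, adjusted p = 0.0812), T1KO minus male WT 0.58 and T2KO over T1KO -0.13. The dimmest probe, 60.0% of whose bases are T, ran against both others after the same centring (r = -0.65 and -0.77). It read 8.63, 8.60, 8.55 and 8.67 in DKO lines 51, 61, 60 and 59, 8.17 in T2KO, 8.10 and 7.94 in T1KO lines 65 and 99, and 8.41, 8.30, 8.53 and 8.49 in WT lines 6, 92, 7 and 94. By this probe the DKO lines were above the WT lines, with a ratio of 0.18 (adjusted p = 0.186), and both T1KO lines and the T2KO line lay below every WT line. The part of probe sequence or 3' end in this was not tested.

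The dual-specificity phosphatases Dusp4 and Dusp6 remove phosphate from ERK, Dusp4 in the nucleus and Dusp6 in the cytoplasm. Dusp4 was 9.83, 9.66, 10.43 and 10.23 in DKO lines 51, 61, 60 and 59, 10.25 in T2KO, 10.40 and 10.82 in T1KO lines 65 and 99, and 9.63, 10.40, 10.09 and 10.34 in WT lines 6, 92, 7 and 94. DKO and WT lines covered nearly the same range, with the 2 male DKO lines and WT line 6 lowest. The ratios of 0.20, -0.74, 0.34 and -0.11 averaged -0.08 (95% interval -0.56 to 0.40, limma adjusted p = 0.821).

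Dusp6, the phosphatase whose mRNA is among the most direct targets of ERK, was 12.62, 13.09, 13.03 and 13.00 in DKO lines 51, 61, 60 and 59, 12.94 in T2KO, 13.34 and 13.59 in T1KO lines 65 and 99, and 12.85, 12.91, 12.13 and 13.17 in WT lines 6, 92, 7 and 94. Both T1KO lines were above all other lines, and WT line 7 was the lowest. The DKO/WT ratios were -0.24, 0.19, 0.90 and -0.17, with a mean of 0.17 (95% interval -0.35 to 0.69, limma adjusted p = 0.634). The 0.90 came from the 60/7 pair, in which feeder markers (0.86) and primed epiblast markers (1.12) were also high, and their part in it was not tested. Without that pair the mean was -0.07.

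Among the 36 pairs of tested genes, the levels of Dusp6 and Spry2 went together most closely over the 11 lines after centring each dye (r = 0.75). Their promoters are therefore shown, as the 250 bases before the start of the gene, from RefSeq on GRCm38.p6, with each CpG in capitals since CpGs are where the TET enzymes' substrate, 5-methylcytosine, lies. Etv5 is added because that gene varied most between lines. Dusp6 lies at chr10:99262981-99263230 on the plus strand, Spry2 at chr14:105896820-105897069 on the minus strand and Etv5, from the upstream of its 2 listed starts, at chr16:22439571-22439820 on the minus strand.
Dusp6: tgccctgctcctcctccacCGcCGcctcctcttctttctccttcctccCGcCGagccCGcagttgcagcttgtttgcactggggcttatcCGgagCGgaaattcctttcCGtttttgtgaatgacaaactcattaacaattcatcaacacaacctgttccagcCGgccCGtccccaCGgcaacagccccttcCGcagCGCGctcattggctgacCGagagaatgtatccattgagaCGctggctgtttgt
Spry2: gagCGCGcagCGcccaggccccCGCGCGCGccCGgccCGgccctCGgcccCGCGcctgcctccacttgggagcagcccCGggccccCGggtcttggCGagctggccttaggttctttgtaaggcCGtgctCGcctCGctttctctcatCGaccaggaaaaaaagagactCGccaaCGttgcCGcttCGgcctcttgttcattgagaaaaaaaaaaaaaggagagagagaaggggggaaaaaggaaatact
Etv5: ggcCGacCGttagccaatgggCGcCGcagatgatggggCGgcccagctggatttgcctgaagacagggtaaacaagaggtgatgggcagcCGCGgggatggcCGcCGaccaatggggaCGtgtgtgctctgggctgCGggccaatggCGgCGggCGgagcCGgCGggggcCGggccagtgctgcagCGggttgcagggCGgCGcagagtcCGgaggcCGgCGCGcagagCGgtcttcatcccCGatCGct
These windows hold 16, 23 and 27 CpGs, against a median of 6 over the 32851 promoters of that table, where 74.6%, 86.7% and 91.4% have fewer. The exact sequence CCGGAA, which holds the shorter core that ETS proteins such as Etv4 and Etv5 bind, was searched on both strands. The shorter core alone was not searched. CCGGAA occurs in none of these 3 windows nor in those of Fgf4 and Spred1, and in 12% of all promoters of this length. Fgf4 (21 CpGs) and Spred1 (31 CpGs) were the other 2 of the 10 genes with a listed promoter that was read. Methylation was not measured here.

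Spry2, a Sprouty protein that blocks receptor signalling upstream of ERK, was 7.84, 9.17, 7.70 and 7.83 in DKO lines 51, 61, 60 and 59, 8.68 in T2KO, 9.43 and 9.75 in T1KO lines 65 and 99, and 8.31, 9.02, 7.99 and 9.03 in WT lines 6, 92, 7 and 94. DKO lines 51, 60 and 59 were the lowest of all 11 lines, DKO line 61 was above every WT line, and both T1KO lines were highest. The ratios were -0.48, 0.15, -0.29 and -1.20, and their mean of -0.46 had the largest size among the 9 genes (SE 0.22, 95% interval -1.02 to 0.10, limma adjusted p = 0.26). T1KO minus male WT was 0.93 (95% interval -0.05 to 1.90, adjusted p = 0.381), and T2KO over T1KO was -0.75 (adjusted p = 0.492).

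The Spry4 probe, for a Sprouty protein that also blocks the pathway, gave values between 6.17 and 6.62 in all 11 lines. It was not well above background in any group, so these values set no level. Spred1, which recruits neurofibromin to switch off RAS, was 10.74, 10.27, 10.30 and 10.74 in DKO lines 51, 61, 60 and 59, 9.88 in T2KO, 10.62 and 11.09 in T1KO lines 65 and 99, and 10.48, 10.68, 10.19 and 10.43 in WT lines 6, 92, 7 and 94. The T2KO line was the lowest of the 11 and T1KO line 99 the highest, while DKO and WT lines overlapped. The DKO/WT ratios of 0.26, -0.41, 0.11 and 0.31 averaged 0.07 (95% interval -0.28 to 0.41, limma adjusted p = 0.787). T2KO over T1KO was -0.74 (SE 0.27, adjusted p = 0.372) and T2KO minus male WT was -0.70 (adjusted p = 0.263). The second Spred1 probe gave -0.10 in DKO over WT and -0.41 in T2KO over T1KO, and put the T2KO line at 9.05, between DKO lines at 8.93 to 9.45.

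Etv4 and Etv5 are ETS transcription factors of the same subfamily, and FGF signalling through ERK induces both. Etv4 was 13.30, 12.38, 12.45 and 12.98 in DKO lines 51, 61, 60 and 59, 13.62 in T2KO, 13.07 and 13.44 in T1KO lines 65 and 99, and 12.81, 13.06, 12.97 and 13.06 in WT lines 6, 92, 7 and 94. The T2KO line was the highest, both T1KO lines were above all WT lines, line 65 narrowly (13.07, against 13.06 in the highest WT lines) and not by the second probe (11.58, against 11.63 in WT line 94), and the DKO lines spread over both sides of the WT lines. The DKO/WT ratios of 0.48, -0.68, -0.52 and -0.08 averaged -0.20 (95% interval -0.72 to 0.32, limma adjusted p = 0.572). T2KO minus male WT was 0.68 (SE 0.20, adjusted p = 0.238) by the brightest probe and 0.97 (SE 0.18, adjusted p = 0.172) by the second, and male DKO minus T2KO was -0.78 and -1.05 by the same probes. With every array kept and lines as a random block, the brightest probe's T2KO minus male WT of 0.69 passed (adjusted p = 0.0493).

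Etv5 was 15.63, 16.40, 16.01 and 14.65 in DKO lines 51, 61, 60 and 59, 16.52 in T2KO, 16.02 and 16.25 in T1KO lines 65 and 99, and 16.17, 14.35, 15.56 and 15.91 in WT lines 6, 92, 7 and 94. WT line 92 and DKO line 59 stood far below the other 9 lines, and no genotype was separate. The DKO/WT ratios were accordingly -0.54, 2.05, 0.45 and -1.26, with a mean of 0.17 (SE 0.55, 95% interval -1.21 to 1.56, limma adjusted p = 0.864). Repeat arrays agreed closely, at -0.57 and -0.51 for pair 51/6 and at -1.21 and -1.31 for pair 59/94, while pairs 61/92 and 60/7 had 1 array each.

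Egr1, a zinc finger factor and immediate early gene, is transcribed within minutes of ERK activation. It was 12.70, 12.61, 12.13 and 12.16 in DKO lines 51, 61, 60 and 59, 12.07 in T2KO, 12.85 and 12.69 in T1KO lines 65 and 99, and 12.04, 12.42, 13.01 and 12.79 in WT lines 6, 92, 7 and 94. Male DKO lines were above male WT lines, whereas female DKO lines were below female WT lines. The ratios were 0.66 and 0.19 in male pairs 51/6 and 61/92, and -0.88 and -0.63 in female pairs 60/7 and 59/94, with an overall mean of -0.17 (limma adjusted p = 0.737). Of all genes, 4.04% had positive ratios in both male and negative ratios in both female pairs, and Egr1 was the only gene of the 9 with this pattern. The male minus female difference was 1.18 (SE 0.22, 95% interval 0.59 to 1.76), and after adjustment over all genes it did not pass (limma adjusted p = 0.828). No gene passed in that comparison (0% of genes), while limma's unadjusted p was under 0.05 for 1063 genes (5.14%), Egr1 alone among the 9. Of 12 further immediate early genes, 10 also had a positive male minus female difference (median 0.35, against 0.004 over all genes). Of 17 further ERK feedback genes and targets, 3 were positive (median -0.24).

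**Figure D2:**
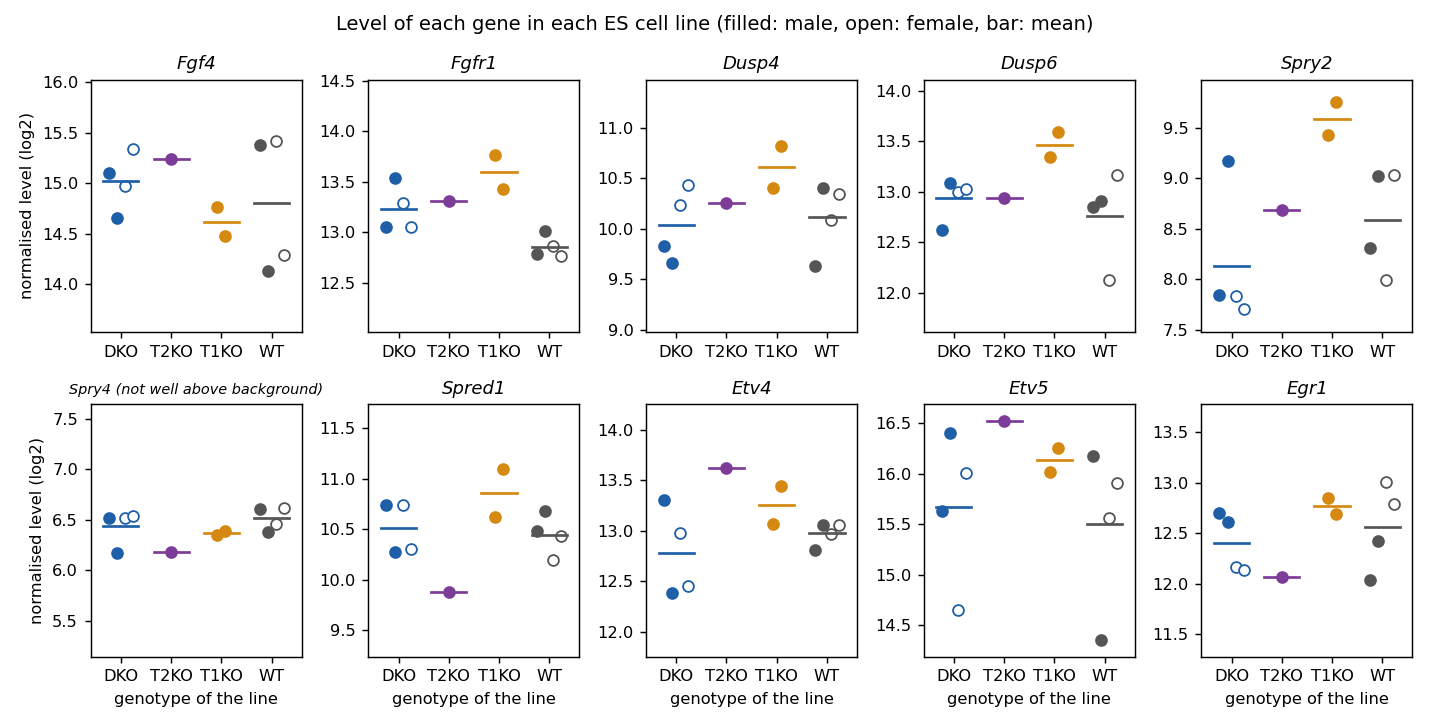
Normalised log2 level (vertical axis) of the 10 genes in the 11 ES cell lines by genotype (horizontal axis), with males filled, females open and a bar at the mean of each genotype. By its brightest probe Fgfr1 is above all WT lines in all 7 knockout lines, and Spry2 and Dusp6 are highest in the 2 T1KO lines.

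Most of these genes varied more between pairs than the typical gene. The SD of the DKO/WT ratio over the 4 pairs was 0.174 for the median gene of the array. It was 1.43 for Etv5, larger than in 99.7% of genes, 0.713 for Egr1 (96.9%), 0.564 for Spry2 (93.8%), 0.522 for Etv4 (92.5%), 0.520 for Dusp6 (92.4%), 0.479 for Dusp4 (90.7%), 0.466 for Fgf4 (90.0%) and 0.331 for Spred1 (79.7%). Fgfr1, with 0.177, was at 51.0%. The ranges of the individual genes show that pairs did not move as a block. Pair 61/92 had the highest ratio of Etv5 and the lowest of Dusp4, and pair 60/7 the highest of Dusp6 and the lowest of Egr1.

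The 2 T1KO lines were compared with the 2 male WT lines, all read in Cy3. None of the 9 genes passed the threshold, as no gene did (0%), and limma's unadjusted p was under 0.05 for Egr1 and Fgfr1, against 2799 genes (13.5%). Of the 9 genes, 8 had a positive difference, with a median of 0.58 over the 9 and 0.005 over all genes, of which 50.7% were positive. Of the further feedback genes and targets 10 of 17 were positive (median 0.15), and of the RAS-ERK cascade 15 of 29 (median 0), while 9 of 12 further immediate early genes were (median 0.30). Among FGF ligands other than Fgf4, 8 of 17 were positive (median 0), and among receptors and coreceptors other than Fgfr1, 7 of 11 (median 0.15). Spry2 was at 0.93, Etv5 at 0.87, Fgfr1 at 0.70, Dusp4 at 0.60, Dusp6 at 0.58, Egr1 at 0.54 (adjusted p = 0.301), Etv4 at 0.31, Spred1 at 0.27 and Fgf4 at -0.13. With normexp on all spots Spry2 was at 0.49, Etv5 at 0.88, Fgfr1 at 0.65, Dusp4 at 0.45, Dusp6 at 0.51 and Egr1 at 0.42. By the same setting Etv4 was at 0.28, Spred1 at 0.07 and Fgf4 at -0.13. Both T1KO lines were above both male WT lines for Egr1, Dusp6, Spry2, Fgfr1 and Etv4 (5 of 9 genes, beside 24.8% of all genes). They were above all 4 WT lines for Dusp6, Spry2, Fgfr1 and Etv4, beside 14.2%, for Etv4 by its brightest probe only. By the dimmest Fgfr1 probe both T1KO lines were below every WT line, and T1KO minus male WT was -0.34 (95% interval -0.61 to -0.06). The Etv5 difference was -0.04 without WT line 92 and 1.78 without WT line 6.

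The single T2KO line was set against T1KO line 65 within arrays. The fit has only this 1 pair and takes its spread from the DKO/WT pairs, which assumes that it varies as they do. No gene of the array passed (0%), and limma's unadjusted p was under 0.05 for 2706 genes (13.1%), Egr1 (-0.78, SE 0.22, adjusted p = 0.316) and Spred1 (-0.74) among them. Of the 9 genes, 3 had a positive ratio (Etv4 0.55, Etv5 0.50 and Fgf4 0.49) and 6 a negative one, with a median of -0.40 against 0.011 over all genes. In the same pair primed epiblast markers had a median of -0.86 and ES cell markers of 0.51, and their part in these values was not tested. With normexp on all spots the ratios were -0.36 for Egr1, -0.14 for Spred1, -0.08 for Spry2, -0.15 for Dusp6, -0.27 for Fgfr1 and 0.01 for Dusp4, and 673 genes had an unadjusted p under 0.05.

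In male DKO lines minus T2KO, all read in Cy5, none of the 9 genes was the 1 gene that passed (0.00483%), and the unadjusted p of Egr1 (0.58) and Dusp4 (-0.51) was under 0.05, as for 12.8% of genes. In T2KO minus male WT, which also carries the difference between dyes, none was among the 2 genes that passed (0.00967%), and Etv4 (0.68) and Spred1 (-0.70) were among the 16.0% of genes at an unadjusted p under 0.05. By its second probe Spred1 was at -0.30 there, with a 95% interval of -0.71 to 0.11. Both comparisons share the T2KO line, and T2KO minus male WT shares the WT lines with the T1KO comparison. Across all 6 comparisons no 95% interval of Fgf4, Dusp6, Spry2 or Etv5 left 0 out.

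**Figure D3:**
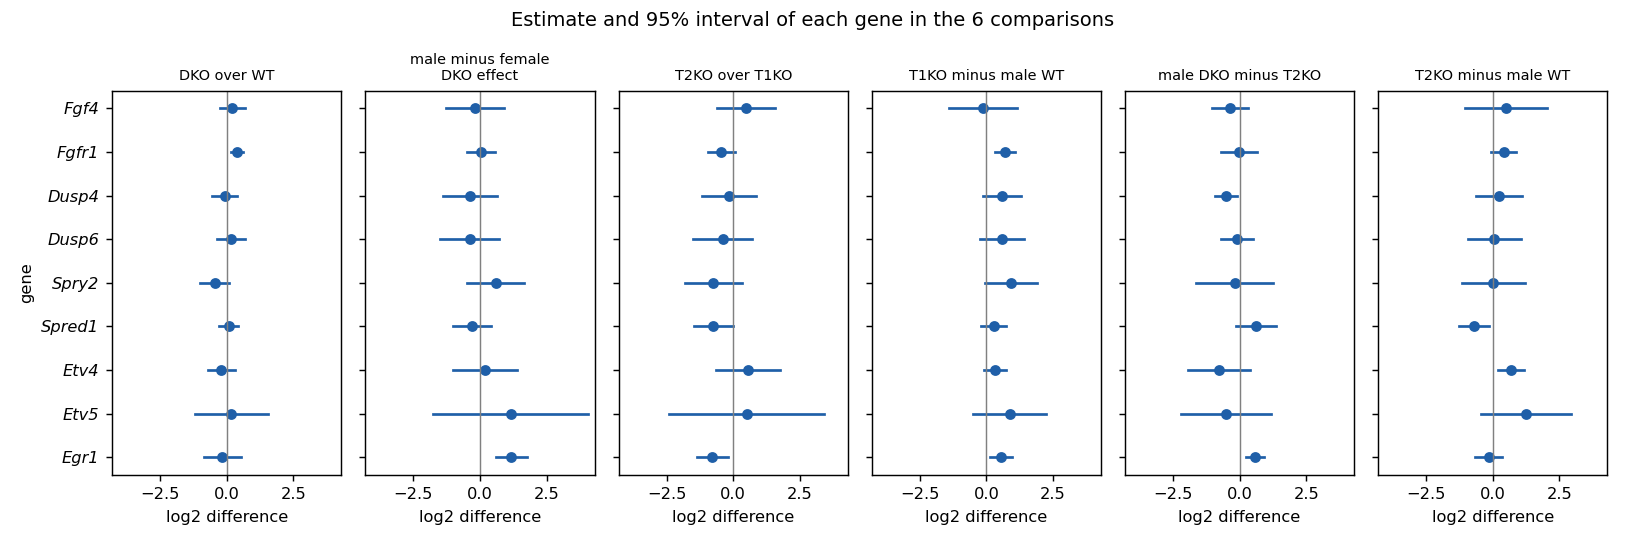
Estimated log2 difference (horizontal axis, dot) with its 95% interval (line) for the 9 tested genes (vertical axis) in each of the 6 comparisons. Intervals are narrowest for Fgfr1 in DKO over WT (0.16 to 0.60) and widest for Etv5 in the male minus female difference and in T2KO over T1KO, and no gene passed the adjusted threshold.

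The rest of the pathway was read through lists. Of 17 tested FGF ligands other than Fgf4, none passed in DKO over WT (limma, 5 at an unadjusted p under 0.05, beside 26.2% of all genes), and the median was 0.10. Fgf5, a ligand of the primed epiblast, had ratios of -0.27, 1.35, 3.65 and 2.02 in pairs 51/6, 61/92, 60/7 and 59/94 and a mean of 1.69 (SE 0.62, adjusted p = 0.169), beside median ratios of primed epiblast markers, Fgf5 included, of -0.53, 0.58, 1.12 and -0.02, whose part in it was not tested. It was followed by Fgf13, an intracellular FGF homologous factor, at 0.44 (adjusted p = 0.171). Of 11 receptors and coreceptors other than Fgfr1, 2 rose and none fell, beside 4.58% of all genes that passed, and the median was -0.02. Hs2st1, the heparan sulphate 2-O-sulphotransferase, had ratios of 0.33, 0.60, 0.58 and 0.59 and rose by 0.53 (SE 0.073, adjusted p = 0.0324). The receptor Fgfr3 had ratios of 0.65, 0.49, 0.43 and 0.26 and rose by 0.46 (SE 0.081, adjusted p = 0.0491). Without any 1 pair neither passed, at adjusted p values of 0.0855 to 0.171 for Hs2st1 and 0.111 to 0.163 for Fgfr3. The Hs2st1 call was also lost with normexp on all spots (0.0524), scanner log ratios (0.0746), an intensity trend (0.058) and sex as a covariate (0.0656), and that of Fgfr3 with these (0.0982, 0.12, 0.0633 and 0.0719), in the authors' value table (ratio 0.27, adjusted p = 0.0776), with every probe on its own (0.0509) and without the replicate block of pairs (0.156).

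In the RAS-ERK cascade, none of 29 listed names passed (7 at an unadjusted p under 0.05, again beside 26.2% of all genes), and the median was 0.07. Hras is counted there under 2 names. The most displaced were Rps6ka3, an ERK-activated kinase, at 0.38 (adjusted p = 0.0602) and Elk1, an ETS factor that ERK phosphorylates, at 0.37 (adjusted p = 0.106). Of 17 further feedback genes and targets none passed (5 unadjusted, median 0.04), led by the phosphatase Dusp9 at 0.61 (adjusted p = 0.105) and by Myc at 0.47 (adjusted p = 0.308). None of 12 immediate early genes other than Egr1 passed (1 unadjusted, median -0.05), led by Klf10 at -0.64 (adjusted p = 0.075) and Btg2 at 0.26 (adjusted p = 0.225). Among all tested genes 53.4% had a positive ratio, beside 5 of the 9 genes followed here.

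**Figure D4:**
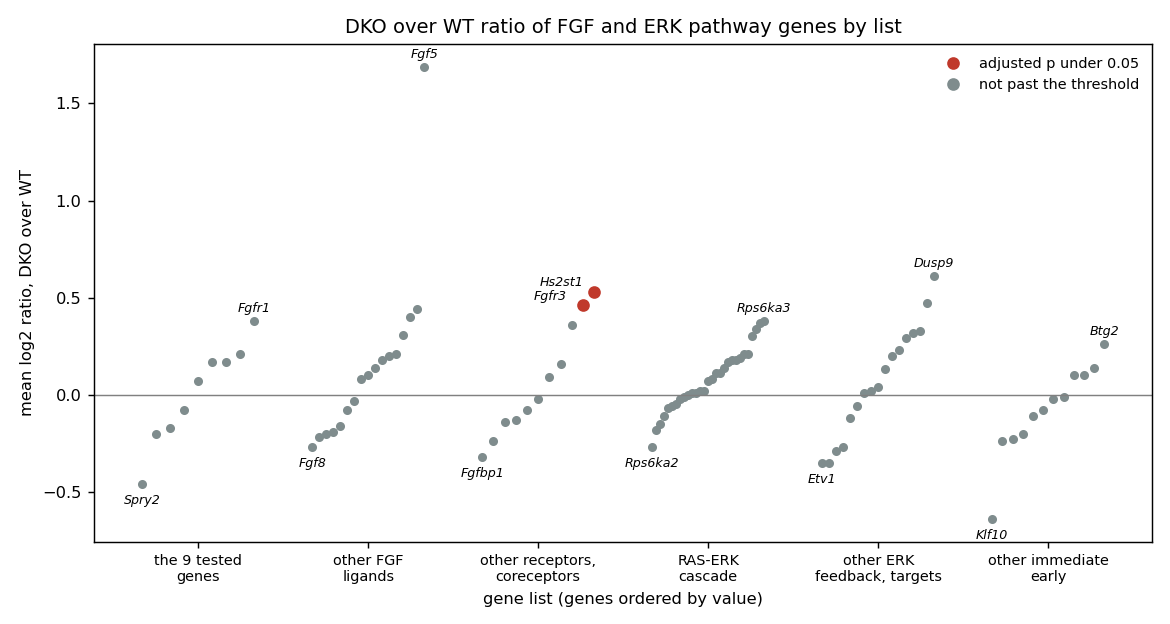
Mean log2 ratio of DKO over WT (vertical axis) for every tested gene of 6 lists (horizontal axis), ordered by value within a list, with genes past an adjusted p of 0.05 in red. Hs2st1 (0.53) and Fgfr3 (0.46) are the 2 red genes, and Fgf5 (1.69) lies highest without passing.

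Over the 11 lines, each level was taken as its deviation from the mean of the lines in the same dye. These means cover DKO and T2KO lines in Cy5 and T1KO and WT lines in Cy3, so deviations compare within a dye only. In Cy3 the mean profile of the 9 genes was highest in T1KO lines 99 (0.39) and 65 (0.24). WT line 92 was lowest there (-0.23). In Cy5 the profile was highest in T2KO line 16 (0.16) and lowest in DKO line 59 (-0.14). Outside all lists, the genes whose profiles were most like it were Tkt (r = 0.971), Pak2 (0.956), Higd2a (0.946), Setd4 (0.938) and Luzp1 (0.935), out of 20544 searched. With so many genes and 11 lines that share arrays, such values are a description only. Among the 9 genes themselves, 25 of the 36 correlations were positive. Their median was 0.14, with a range from -0.66 for Fgf4 with Spry2 to 0.75 for Dusp6 with Spry2.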

How the data were processed

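RNA of 11 ES cell lines was measured on 10 two-colour arrays. The deposited scanner files hold mean spot and median background intensities that are not normalized, and, per the file headers, the log10 ratio of Cy5 to Cy3 as Agilent Feature Extraction 10.1.1.1 wrote it. The authors' deposited value table is near a log2 ratio of Cy5 to Cy3 (r with the scanner's ratios 0.772 to 0.842, column medians 0.00178, 0.00341, 0.00544, 0.00499, 0.00321, 0.00752, 0.00669, 0.00565, 0.00212 and 0.00685), with normalization and centring unknown, and served as an alternative.

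Background was corrected with normexp (offset 50), whose fit left out gene spots below their local background (71 to 122 an array), a choice made knowing how a fit on all spots behaves. Ratios were normalized by loess, and average intensities between arrays by quantiles (Aquantile), in limma 3.58.1 on R 4.3.3, with plots in matplotlib. Control spots and 173 to 337 outlier spots per array were left out, spots of a probe were averaged, and no gene spot was saturated. Well above background were 62.6% to 69.0% of Cy5 and 55.2% to 61.5% of Cy3 spots. Probes entered the tests when, in 1 or more groups of genotype and sex, every array read them well above background (25897 of 39429 probes, 26581 of all named through RefSeq accessions). Each of 20691 genes was represented by its brightest probe, and 4306 had more than 1. The T1KO 99 levels depend in part on the excluded channel, which took part in the normalization.

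DKO over WT was tested on the ratios of 4 pairs with eBayes after lmFit (two-sided, adjusted by Benjamini-Hochberg across genes, threshold 0.05), as were the sex difference and T2KO over T1KO in a fit with a mean per group. The other 3 comparisons used levels per line. The number of arrays limits precision, and p-values measure only the spread between these lines. DKO and WT lines are paired by hybridisation, and their deviations from the group means correlated within every pair (r = 0.298, 0.367, 0.189 and 0.511). The fits of DKO over WT and of T1KO minus male WT were tested on simulated data with independent noise. Those of the other comparisons were not. Named were all probes of the 10 genes, every list gene past the threshold in DKO over WT, the 2 most displaced genes of each list and comparison (1 of them is not reported here), the 5 genes most like the mean profile, and Tet1 and Tet2. Genes, lists and tests were chosen with earlier results of these data known.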

Additional observations from a re-analysis of the deposited data

Results flagged for a closer look

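Spry2 in DKO line 61, at 9.17, lay far above the other 3 DKO lines, which were between 7.70 and 7.84, in a check for a single distant sample over 30 groups, of which chance flags about 1 in 20. The Spry4 value of the same line, 6.17, was flagged by the same check. It lay below the other DKO lines at 6.52 to 6.54, a much smaller gap in log2 units, from a probe that is not well above background.

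The Egr1 difference between male and female DKO/WT pairs, 1.18, stood out because both male pairs moved one way (0.66 and 0.19) and both female pairs the other (-0.88 and -0.63). It did not pass after adjustment over all genes (limma adjusted p = 0.828). Sex and slide cannot be told apart in this difference.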

How the results depend on the processing

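In DKO over WT, 947 genes passed with limma. The count was 363 with normexp fitted on all spots, 532 in the authors' value table, 6704 with median centring, 1477 with every array and lines as a random block, 0 with an intensity trend in the variance prior (5502 at an unadjusted p under 0.05), and 0 with sex as a covariate (5275 unadjusted). Without the pairs as a replicate block it was 749. Leaving out 1 pair gave 0 to 0. With every array as a random block, which counts repeat arrays in part, 4 genes passed in the sex difference, 563 in T2KO over T1KO, 234 in T1KO minus male WT, 319 in male DKO minus T2KO and 711 in T2KO minus male WT. T2KO minus male WT, with 2 genes, gave 0 with normexp on all spots, 156 with scanner log ratios, 3085 with median centring, 5 with the intensity trend and 0 to 5 without 1 line. T1KO minus male WT, with 0, gave 2 with scanner log ratios. Male DKO minus T2KO, with 1, gave 0 with scanner log ratios, 3 with the intensity trend and 0 to 0 without 1 line. The cause was not tested.

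Calls among the 10 genes arose under 2 settings only, median centring (Fgfr1 and Fgf4 in DKO over WT, Fgfr1 and Etv4 in T2KO minus male WT) and the random block (Etv4 in T2KO minus male WT). Signs turned with normexp on all spots for Dusp4 in T2KO over T1KO (0.01) and Egr1 in T2KO minus male WT (0.01). They turned with scanner log ratios for Spred1 in DKO over WT (-0.03), Fgf4 in T1KO minus male WT (0.02) and Spry2 in T2KO minus male WT (-0.10). With median centring they turned for Egr1 (0.17), Dusp4 (0.17) and Etv4 (0.16) in DKO over WT (-0.02, -0.02 and -0.03 from the median of all genes), Dusp6 (0.07), Dusp4 (0.18) and Fgfr1 (0.05) in T2KO over T1KO, and Egr1 (0.26) in T2KO minus male WT. Leaving out 1 pair or line turned the sign in 21 of 47 results on single genes, T2KO over T1KO aside, whose only pair cannot be left out. Their ranges follow. For DKO over WT these were Egr1 (-0.44 to 0.07), Dusp6 (-0.07 to 0.31), Dusp4 (-0.22 to 0.14), Etv5 (-0.45 to 0.65) and Spred1 (-0.02 to 0.23). In male minus female DKO effect they were Dusp6 (-0.93 to 0.14), Dusp4 (-0.85 to 0.08), Etv5 (-0.14 to 2.45), Fgfr1 (-0.13 to 0.21), Etv4 (-0.38 to 0.78), Spred1 (-0.63 to 0.04) and Fgf4 (-0.59 to 0.23). For male DKO minus T2KO these were Dusp6 (-0.32 to 0.15), Spry2 (-0.85 to 0.49) and Fgfr1 (-0.26 to 0.23). In T1KO minus male WT they were Etv5 (-0.04 to 1.78) and Fgf4 (-0.76 to 0.50). For T2KO minus male WT these were Egr1 (-0.35 to 0.03), Dusp4 (-0.15 to 0.62), Spry2 (-0.34 to 0.37) and Fgf4 (-0.13 to 1.12).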

Other observations

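Other list genes with the most displaced values, none of them past the threshold in limma, were the following. In male minus female DKO effect, Fgf8 was at -2.31, Fgf5 at -2.29, Etv1 at -0.99, Fos at 0.88, Fosb at 0.85, Fgfr4 at 0.82, Ier3 at -0.74, Gab1 at 0.72, Fgfbp1 at -0.45 and Braf at -0.38 (adjusted p = 0.828 for each). T2KO over T1KO had the epiblast ligands Fgf5 at -3.11 and Fgf8 at -1.70, Jun at -1.63, Phlda1 at -1.58, Fgfbp1 at -1.37, Myc at -1.33, Fosb at -0.91, Braf at -0.70, Flrt3 at -0.70 and Araf at -0.63. In the same pair 2 of 17 further ERK feedback genes and targets and 2 of 12 immediate early genes were positive (medians -0.38 and -0.40), and primed epiblast markers had a median of -0.86 and ES cell markers of 0.51. Their part in these values was not tested.

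T1KO minus male WT had Fgfr4 at 1.02, Fgf5 at 0.97, Fgf15 at -0.77, Dusp9 at 0.75, Sos2 at 0.72, Fgfr3 and Errfi1 at 0.71 each, Fos at 0.60, Fosb at 0.58 and Nf1 at -0.56. Male DKO minus T2KO had Fgf5 at 2.40, Phlda1 at 1.34, Fgfr4 at -1.15, Myc at 1.02, Fgf1 at -0.83, Fgfbp1 at 0.83, Jun at 0.64, Zfp36 at 0.58 and Nf1 at 0.56. T2KO minus male WT had Fgf8 at -2.01, Fgf5 at -1.86, Phlda1 at -1.53, Fgfr4 at 1.48, Fgfbp1 at -1.38, Jun at -1.03, Etv1 at -0.86, Btg2 at 0.71, Braf at -0.59 and Gab1 at 0.56.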
